A study of Mus musculus with 8 samples.

Results

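The subject here is a set of 9 receptor genes through which growth factors and cytokines act on blood-forming cells: Kit, Flt3, Csf1r, Csf2ra, Csf2rb, Csf3r, Il3ra, Il6ra and Epor. They were taken by gene symbol from the 23293 mouse genes of the deposited expression table, and all 9 were found and passed the filter on low values that 10854 genes passed (a mean of at least 1 FPKM). RNA was sequenced from bone marrow cells enriched on magnetic beads for Kit (Cd117) from individual mice, 4 weeks after PIpC, an inducer of the interferon-responsive Mx1-cre recombinase. There were 8 libraries, 2 in each of 4 groups. The combined group carried Mx1-cre, a floxed Smc3 allele and Flt3-ITD, and is labelled Smc3 fl/del in one field and het in another. The second group, Flt3-ITD, carried Mx1-cre and Flt3-ITD. The third, Smc3 del/+, carried Mx1-cre and 1 floxed Smc3 allele, and the controls, Smc3 fl/+, carried a floxed allele and no Mx1-cre. Comparisons with control therefore also compare mice with and without the recombinase, which interferon switches on in other tissues besides blood. The labels give neither the number of Flt3-ITD alleles nor the age or sex of the mice. Smc3 is a core subunit of cohesin, and an internal tandem duplication (ITD) of Flt3 leaves its kinase active without ligand.

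Receptors of this set fall into separate classes. Kit, Flt3 and Csf1r are receptor tyrosine kinases for stem cell factor, Flt3 ligand and M-CSF, and hold their kinase in their own chain. The others belong to the cytokine receptor class, which has no kinase of its own and signals through JAK kinases and STAT factors. Csf2ra and Il3ra are the ligand-specific chains for GM-CSF and interleukin-3 and pair with the shared signalling chain Csf2rb. Il6ra pairs with the signalling chain Il6st (gp130), and Csf3r and Epor bind G-CSF and erythropoietin as pairs of like chains. Kit marks stem and progenitor cells, Csf3r and Csf1r mark the granulocyte and monocyte branches, and Epor marks the erythroid branch.

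The promoters of the 3 genes that passed the test in both Flt3-ITD comparisons described further on, Epor, Csf2ra and Il6ra, are shown first. They come from RefSeq on GRCm38.p6 and run from 250 bases before the annotated start to 50 after it, 5′ to 3′ on the gene's strand. Capitals mark GATA motifs (NGATAN with A or T as its first base and A or G as its last, on either strand) and the letters GAGGAA, a core that ETS factors such as PU.1 recognise, also on either strand. The windows are chr9:21963527-21963826 for Epor, chr19:61228369-61228668 for Csf2ra and chr3:89913147-89913446 for Il6ra, all on the minus strand.
Epor: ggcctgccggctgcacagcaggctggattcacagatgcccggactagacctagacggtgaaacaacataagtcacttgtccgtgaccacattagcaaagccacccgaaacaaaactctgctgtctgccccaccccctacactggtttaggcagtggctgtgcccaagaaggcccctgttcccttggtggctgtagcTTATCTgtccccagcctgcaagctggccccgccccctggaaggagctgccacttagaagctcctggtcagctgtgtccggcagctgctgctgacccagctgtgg
Csf2ra: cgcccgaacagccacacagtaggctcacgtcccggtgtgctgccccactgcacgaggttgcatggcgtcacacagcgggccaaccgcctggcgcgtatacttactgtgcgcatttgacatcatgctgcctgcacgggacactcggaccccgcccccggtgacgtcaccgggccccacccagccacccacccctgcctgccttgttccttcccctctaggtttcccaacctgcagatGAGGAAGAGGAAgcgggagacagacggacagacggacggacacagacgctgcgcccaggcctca
Il6ra: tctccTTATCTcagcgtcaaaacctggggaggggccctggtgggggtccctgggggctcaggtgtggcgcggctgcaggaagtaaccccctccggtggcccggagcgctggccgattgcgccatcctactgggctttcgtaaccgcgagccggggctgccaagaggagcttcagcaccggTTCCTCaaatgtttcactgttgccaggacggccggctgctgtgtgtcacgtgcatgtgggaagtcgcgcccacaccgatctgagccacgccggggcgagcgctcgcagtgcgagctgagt
The Epor window held 1 GATA motif, whose first base is at -54 from the start, and no GAGGAA. The Csf2ra window held 2 adjacent copies of GAGGAA, at -14 and -8, and no GATA motif. The Il6ra window held 1 of each, at -245 for GATA and -70 for GAGGAA. RefSeq promoter windows were kept for 7 of the 9 symbols, with none for Csf1r and Csf2rb. A filter on chromosome was applied to the members' windows before this count and not to the background below. The 7 is thus not a count of symbols with a RefSeq promoter. Of these 7, a GATA motif was in 3 (Epor, Il6ra, Il3ra) and GAGGAA in 4 (Csf2ra, Il6ra, Csf3r, Kit). Among 32851 promoters of the same length, 29.8% held such a GATA motif and 28.3% held GAGGAA. The RUNX motif TGTGGT was in 1 of the 7 windows (16.8% of all), the C/EBP motif TTGCNNAA was in 1 (10.8%), and the STAT motif TTCNNNGAA was in 0 (8.3%), each searched on both strands. These are letter matches and not bound sites.

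Several facts of the libraries bear on what follows. Smc3 was at 103 and 136 FPKM in the combined group and 94.7 and 89.9 in Flt3-ITD. It was at 135 and 133 in Smc3 del/+ and 119 and 112 in controls. In these FPKM, as deposited, no library labelled with the deletion had less Smc3 RNA than its comparison group's lowest. In a second table, which the authors normalized, Smc3 del/+ replicate 2, at 129, was below both controls, at 141 and 161. FPKM of the whole gene does not separate the alleles, and every comparison below refers to libraries as labelled. Xist was at 500 to 596 FPKM in the combined group and 617 to 657 in controls, but at most at 0.936 in the other groups. Each comparison of single groups below thus also sets high-Xist against low-Xist libraries, and genotype and sex cannot be told apart in it. The average over both Flt3-ITD comparisons is balanced for Xist, but not for Mx1-cre, which the controls lacked and every other library carried. Combined against Smc3 del/+ has Mx1-cre on both sides. Combined replicate 2 stood apart. The SD over genes of the difference between replicates was 0.70 on the log2 scale in the combined group, against 0.41 in Flt3-ITD, 0.35 in Smc3 del/+ and 0.39 in controls. That library also had 11076 genes listed at 0, against 8878 to 9907 in the other 7. Its relative depth, estimated weakly from the steps between low values, was the lowest, 0.712 of control replicate 1, where the others were at 0.807 to 1.01. Depth in reads is unknown. Spike-ins made up 2.83% and 2.70% of the summed FPKM in the combined group and 2.28% and 2.56% in Flt3-ITD. Their share was 2.38% and 2.61% in Smc3 del/+ and 1.92% and 1.73% in controls. The summed FPKM includes the gene Mir5133, which made up 12.9% and 6.20% of the mouse FPKM in controls. Mir5133 made up 3.90% in Smc3 del/+ replicate 2 and 0 in every other library, so it lowers the spike-in share unevenly. The cells match their label in having Kit in every library, while the summed FPKM of 10 neutrophil markers was 142714 to 172545 in the combined group, 160791 to 229595 in Flt3-ITD, 104720 to 108783 in Smc3 del/+ and 79639 to 86933 in controls.

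Csf2ra and Il6ra were higher, and Epor lower, in both groups that carried the Flt3-ITD allele than in the groups without it. Flt3-ITD against control asks what goes with the allele in libraries not labelled with an Smc3 deletion, and combined against Smc3 del/+ asks the same in libraries labelled with one. The 2 comparisons share no library. In the first, limma called 2 of the 9 genes higher (Csf2ra and Il6ra) and 1 lower (Epor) at an adjusted p under 0.05, where 8.51% of all tested genes were called higher and 9.5% lower. In the second the call fell on the same 3 genes in the same directions, where 2.55% of all genes were called higher and 2.89% lower. In both comparisons at once, 1.12% of tested genes were called higher and 2.44% lower. Averaged over both comparisons, Csf1r and Csf2rb were called as well, which made 4 higher and 1 lower of 9, against 12.5% and 13.5% of all genes. Without overlap between the libraries, 6 of the 9 were higher and 1 lower in the first comparison (34.3% and 35.2% of all genes), and 5 were higher and 2 lower in the second (22.3% and 25.7%). The 4 genes Csf1r, Csf2ra, Csf2rb and Il6ra were higher without overlap in both, against 15.0% of all genes, and Epor was lower in both, against 17.9%. An unadjusted p under 0.05 was reached by 6 of the 9 in each of the 2 comparisons and in the average, against 33.9%, 21.9% and 39.5% of all genes. The median log2 difference of the 9 genes was 0.85 in the first comparison, 0.55 in the second and 0.51 in the average, against -0.01, -0.02 and -0.01 for all tested genes. In the table the authors normalized, the split of calls shifted to 106 higher and 4768 lower in the first comparison, 162 and 1141 in the second and 267 and 5245 in the average, in place of 924 and 1031, 277 and 314, and 1358 and 1470. The median of all genes moved there to -0.58, -0.30 and -0.44. Relative to these medians, each of the 9 genes kept the direction it had in the first table in both comparisons. Taking the median off also removes any shift that all genes share. Whether the shift of the medians goes with the spike-in shares was not tested. In this mixture of progenitors, fewer cells of a type and less RNA per cell cannot be told apart.

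**Figure D1:**
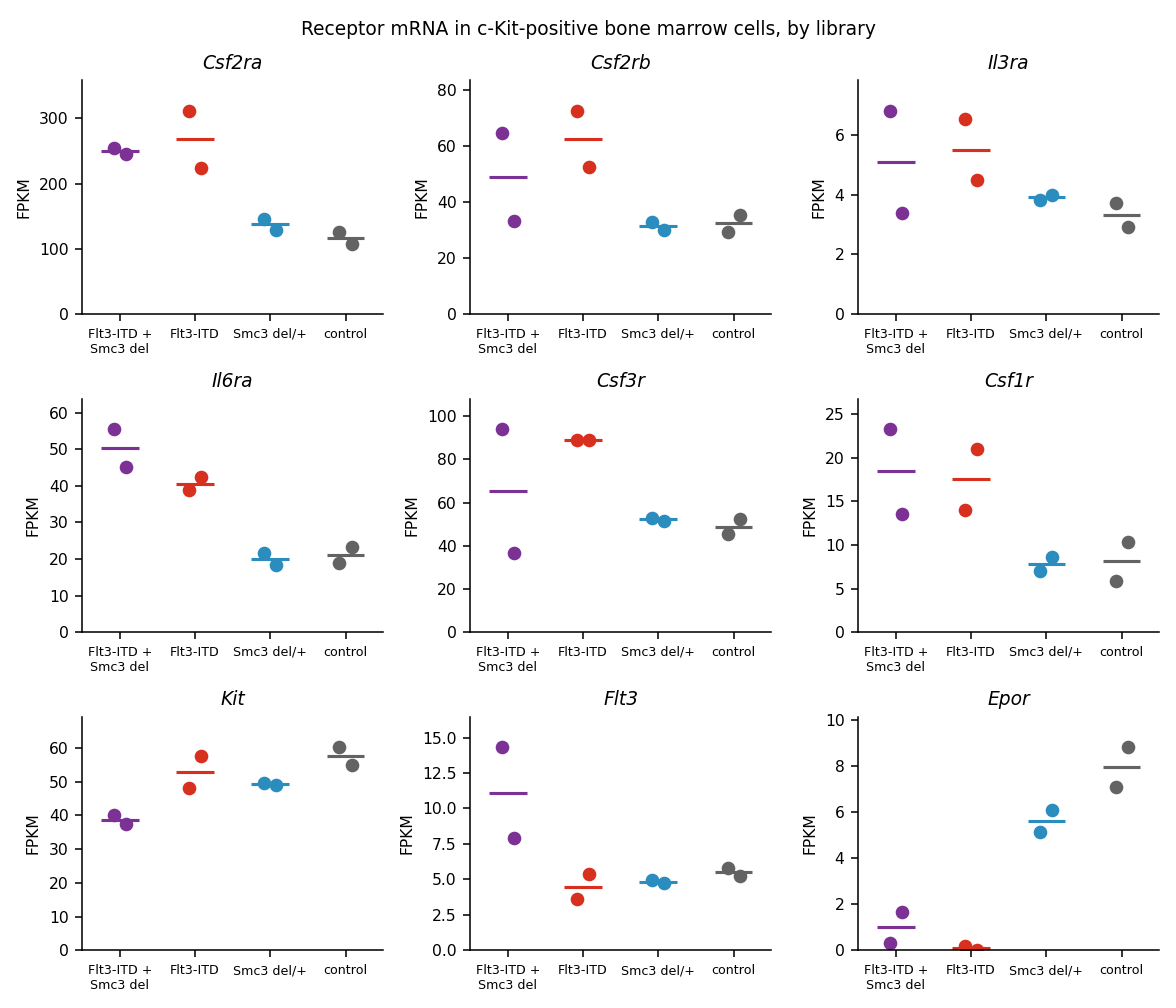
FPKM (vertical axes, each from 0) of the 9 receptor genes in the combined (Flt3-ITD + Smc3 del), Flt3-ITD, Smc3 del/+ and control groups; each point is 1 library and each bar the mean of 2. Csf2ra, Il6ra and Csf1r were higher in all 4 Flt3-ITD carriers than in the other 4 libraries, Epor was lower in all 4, and the combined replicates lie far apart for Csf3r, Csf2rb, Il3ra and Flt3.

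Csf2ra, the GM-CSF receptor chain, was the most abundant of the set per transcript length, above 97.0% of tested genes in its mean over 8 libraries. It was at 312 and 224 FPKM in Flt3-ITD, against 126 and 108 in controls, and at 254 and 245 in the combined group, against 146 and 129 in Smc3 del/+. All 4 carriers were above all 4 other libraries, with no overlap. The log2 difference was 1.17 ± 0.181 (SE, limma adjusted p = 0.00682) in the first comparison and 0.86 ± 0.181 (adjusted p = 0.0390) in the second, and 1.02 ± 0.128 in the average (adjusted p = 0.00215). The average passed under all 14 alternatives run. The first comparison did not pass without control replicate 1 or 2 (highest adjusted p 0.0680), and the second passed in 7 of 15 alternatives.

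Csf2rb, the signalling chain that the GM-CSF, interleukin-3 and interleukin-5 receptors share, followed in Flt3-ITD but was uneven in the combined group. It was at 72.6 and 52.4 FPKM in Flt3-ITD, against 29.4 and 35.4 in controls. In the combined group it was at 64.7 in replicate 1 and 33.1 in replicate 2, against 32.9 and 30.0 in Smc3 del/+. Replicate 2 of the combined group was thus within the range of libraries without Flt3-ITD. The log2 differences of 0.91 ± 0.303 and 0.55 ± 0.303 did not pass (limma adjusted p = 0.0755 and 0.340), while their average of 0.73 ± 0.214 did (adjusted p = 0.0418). The second difference was 1.02 without combined replicate 2 and 0.07 without replicate 1. The average was 0.97 without replicate 2 and 0.49 without replicate 1. The average was lost in 9 of 14 alternatives, in the authors' normalized table among them (0.29, adjusted p = 0.353, or 0.73 relative to the median of all genes there). Mouse Csf2rb has a close paralog, Csf2rb2, which serves interleukin-3 alone. Of 50-base windows in the GENCODE M21 coding transcripts of Csf2rb, 17.1% also occur in those of Csf2rb2, so reads could be split between them. Csf2rb2 was at 11.0 and 8.57 FPKM in the combined group, 15.8 and 7.06 in Flt3-ITD, 4.30 and 3.51 in Smc3 del/+ and 4.96 and 7.37 in controls. It made up between 10.5% and 20.6% of the summed FPKM of both genes in each of the 8 libraries.

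Il3ra, the interleukin-3 chain, was low, at 6.56 and 4.49 FPKM in Flt3-ITD, against 3.73 and 2.93 in controls. It was at 6.83 and 3.40 in the combined group, against 3.83 and 4.00 in Smc3 del/+. The groups did not overlap in the first comparison and overlapped in the second, and neither log2 difference passed (0.58 ± 0.308, limma adjusted p = 0.232, and 0.26 ± 0.308, adjusted p = 0.678). The second was -0.16 without combined replicate 1 (adjusted p = 0.688) and 0.67 without replicate 2 (adjusted p = 0.0897). The average was 0.42 ± 0.218 (adjusted p = 0.198). It was 0.63 without combined replicate 2 and 0.21 without replicate 1. In the authors' normalized table the first difference was -0.03, or 0.55 relative to the median of all genes there.

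Il6ra, the ligand-binding chain of the interleukin-6 receptor, had the smallest adjusted p of the rising genes in the average. It was at 38.8 and 42.4 FPKM in Flt3-ITD, against 18.9 and 23.3 in controls, and at 55.6 and 45.2 in the combined group, against 21.7 and 18.4 in Smc3 del/+. In the authors' normalized table combined replicate 2, at 33.4, was below control replicate 2, at 33.8. In the FPKM as deposited, the lowest carrier was well above the highest library without the allele. The log2 differences were 0.92 ± 0.170 (limma adjusted p = 0.0128) and 1.28 ± 0.170 (adjusted p = 0.0117), with an average of 1.10 ± 0.121 (adjusted p = 0.00131) that passed in all 14 alternatives. In the authors' normalized table the first was 0.39 (adjusted p = 0.225), or 0.97 relative to the median of all genes there. Without any one of the control or Flt3-ITD libraries it did not pass (adjusted p up to 0.117). Without either Smc3 del/+ library the second did not pass (adjusted p up to 0.126). Il6st, its signalling partner, was picked with its values in view. It had 20.3 and 29.5 FPKM in Flt3-ITD, against 6.98 and 8.39 in controls, and 37.7 and 16.6 in the combined group, against 7.79 and 7.59 in Smc3 del/+. Its log2 differences were 1.56 and 1.59 (limma adjusted p = 0.0241 and 0.0451), and 1.57 in the average (adjusted p = 0.00481).

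**Figure D2:**
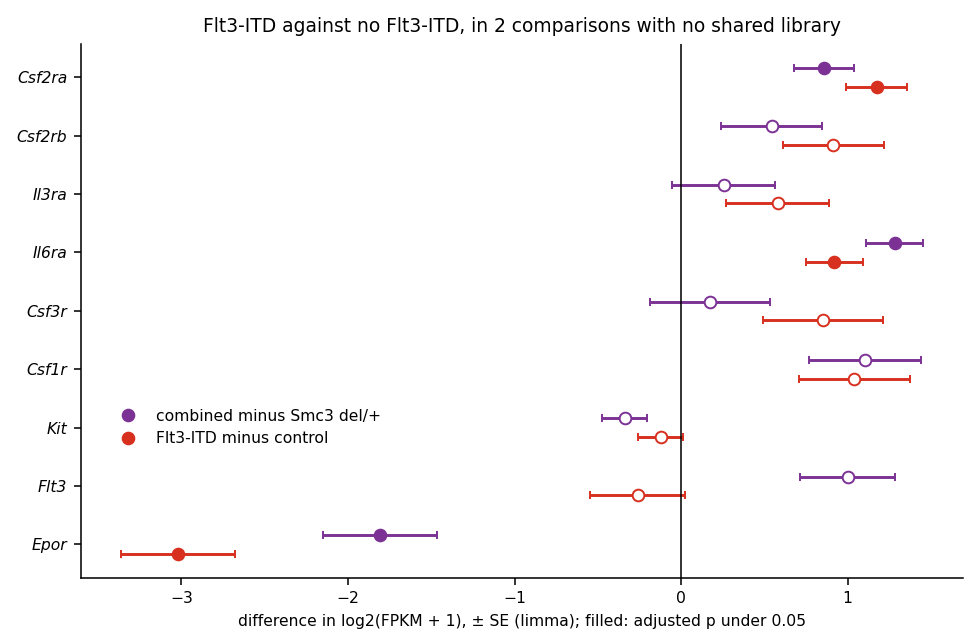
Difference in log2(FPKM + 1) with its SE from limma (horizontal axis) for each of the 9 receptor genes; purple is combined minus Smc3 del/+, red is Flt3-ITD minus control, and filled points have an adjusted p under 0.05. Csf2ra and Il6ra are filled on the right and Epor on the left in both comparisons, while Flt3 lies at 1.0 in the first and -0.26 in the second.

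Csf1r, the M-CSF receptor of the monocyte branch, was at 14.0 and 21.0 FPKM in Flt3-ITD, against 5.92 and 10.3 in controls. It was at 23.3 and 13.6 in the combined group, against 6.96 and 8.59 in Smc3 del/+. In the authors' normalized table Csf1r was at 10.3 in combined replicate 2 and 12.7 in Flt3-ITD replicate 1, below control replicate 2 at 15.2. In the FPKM as deposited, carriers and other libraries did not overlap for Csf1r, Csf2ra and Il6ra. These were 3 of the 9 genes, where 12.1% of all genes were higher without overlap. Each log2 difference alone missed the threshold (1.04 ± 0.335, limma adjusted p = 0.0699, and 1.11 ± 0.335, adjusted p = 0.109), and the average of 1.07 ± 0.237 passed (adjusted p = 0.0160). The average was lost in 5 of 14 alternatives, with an adjusted p of up to 0.0730, reached in the authors' normalized table (0.62, or 1.06 relative to the median of all genes there). The second difference was 1.47 without combined replicate 2 and 0.74 without replicate 1, while the first stayed at 1.04. Monocyte and macrophage markers moved beside it in part. Their summed FPKM over 13 genes was 416 to 533 in the combined group, 312 to 407 in Flt3-ITD, 200.5 to 249 in Smc3 del/+ and 223 to 250 in controls. Of 12 tested markers, 6 rose and 5 fell in the average, where 12.5% of all genes rose and 13.5% fell. Ly86 rose by a log2 difference of 1.13 in Flt3-ITD against control and 1.57 in the combined group against Smc3 del/+, and Ccr2, the monocyte chemokine receptor, by 2.37 in the combined group against Smc3 del/+. The macrophage genes Axl and C1qb fell by 1.92 and 2.56 in Flt3-ITD against control. Cd5l, also of macrophages, was listed at 0 in all 4 carriers, against 1.85 and 2.52 FPKM in Smc3 del/+ and 2.42 and 3.41 in controls. The part of these cells in the Csf1r result was not tested.

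Csf3r, the G-CSF receptor of the neutrophil branch, was at 88.9 and 88.9 FPKM in Flt3-ITD, against 45.6 and 52.2 in controls. In the combined group it was at 94.1 in replicate 1 and 36.8 in replicate 2, against 52.7 and 51.7 in Smc3 del/+. Combined replicate 1 was the highest and replicate 2 the lowest of all 8 libraries. The log2 differences were 0.85 ± 0.362 (limma adjusted p = 0.143) and 0.17 ± 0.362 (adjusted p = 0.826), and the average was 0.51 ± 0.256 (adjusted p = 0.181). The distance between the combined replicates enters the spread behind each of these SEs. Without combined replicate 2 the values were 0.85, 0.84 and 0.85. Without combined replicate 1 the first was also 0.85, but the second was -0.49 and the average 0.18. The direction of Csf3r in the combined group is thus that of the library left in. Of 10 neutrophil markers, 7 were also higher in combined replicate 1 than in replicate 2, among them Mmp8 at 702 and 137 FPKM and Retnlg at 387 and 66.1. The other 3, Camp, S100a8 and S100a9, were higher in replicate 2, and with them the sum, at 142714 in replicate 1 and 172545 in replicate 2. Over 10 such markers, 5 rose and 0 fell in Flt3-ITD against control, where 8.51% of all genes rose and 9.5% fell. Ltf and Itgam were among the 5, with log2 differences of 1.48 and 1.31. In the combined group against Smc3 del/+, 0 of the 10 were called, where 2.55% of all genes rose and 2.89% fell. The part of these markers in the Csf3r result was not tested.

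Epor, the erythropoietin receptor, was the gene of the set that changed most. It was at 0.204 FPKM in Flt3-ITD replicate 1 and listed at 0 in replicate 2, against 7.08 and 8.80 in controls. In the combined group it was at 0.339 and 1.65, against 5.14 and 6.09 in Smc3 del/+. Every carrier was below every other library, where 15.1% of all genes were lower without overlap. The log2 difference, which understates changes of low genes, was -3.02 ± 0.343 (limma adjusted p = 0.00254) in the first comparison, -1.81 ± 0.343 (adjusted p = 0.0288) in the second and -2.41 ± 0.243 (adjusted p = 0.00101) in the average. The first passed in all 15 alternatives and the average in all 14. The second passed in 6 of 15, with an adjusted p of up to 0.215 and log2 differences of -2.30 to -1.31 when single libraries were left out.

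Erythroid markers fell beside Epor. Of 13 tested markers, 12 fell in Flt3-ITD against control and 10 in the combined group against Smc3 del/+, with 0 higher in either. For comparison, 9.5% of all genes fell in the first and 2.89% in the second. Klf1, the erythroid Kruppel-like factor, fell by 4.17 in Flt3-ITD against control, and Ank1, a membrane skeleton protein, fell by 3.64 there and by 2.49 in the combined group against Smc3 del/+ on the log2 scale. Their summed FPKM over 14 genes was 223 to 637 in the combined group, 85.8 to 194 in Flt3-ITD, 1858 to 2003 in Smc3 del/+ and 2059 to 2155 in controls. Alas2 was listed at 0 in both combined libraries. Hbb-b1, 1 of the 14 genes, was listed at 0.01 in 7 libraries and at 25.1 in Smc3 del/+ replicate 2. Among the 4 carriers, combined replicate 2 had the highest Epor value and the highest erythroid sum. The part of the erythroid cells in the Epor result was not tested. Of 8 megakaryocyte markers, 8 fell in Flt3-ITD against control and 3 in the combined group against Smc3 del/+, with summed FPKM of 17.3 and 66.4 in the combined group, 17.5 and 24.6 in Flt3-ITD, 72.5 and 81.9 in Smc3 del/+ and 208 and 203 in controls.

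**Figure D3:**
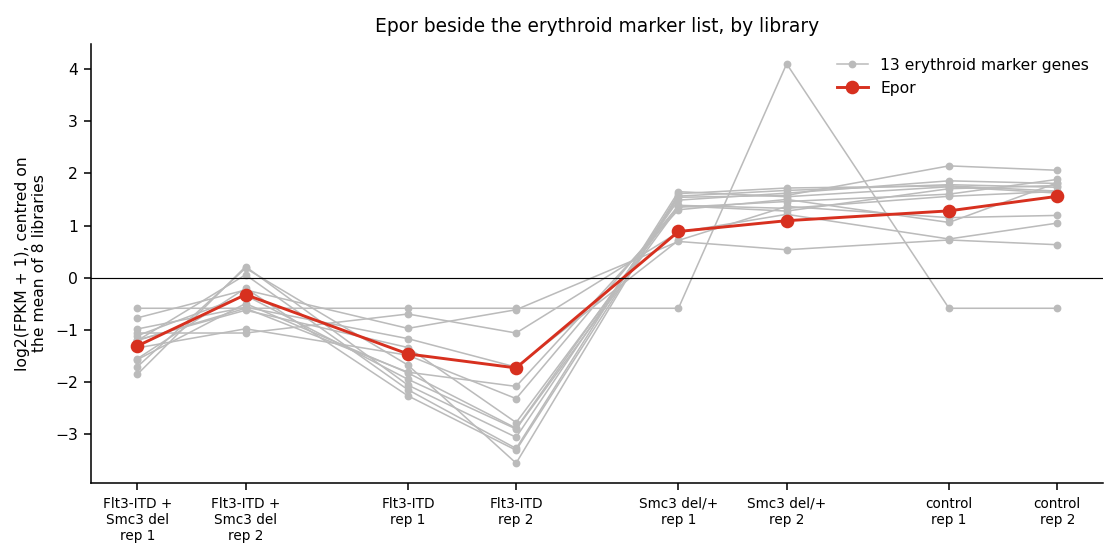
Log2(FPKM + 1) of Epor (red) and of 13 erythroid marker genes (grey), each centred on its mean over the 8 libraries (vertical axis), for the libraries of the combined (Flt3-ITD + Smc3 del), Flt3-ITD, Smc3 del/+ and control groups; lines join the values of 1 gene and replicates have no order. Epor lies below its mean in all 4 Flt3-ITD carriers, and the grey line with a lone peak in Smc3 del/+ replicate 2 is Hbb-b1.

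Kit, by which the cells were enriched, did not pass the test in any comparison of all 8 libraries as deposited. It was at 48.1 and 57.6 FPKM in Flt3-ITD, against 60.1 and 54.9 in controls, which overlap (log2 difference -0.12 ± 0.136, limma adjusted p = 0.576). It was at 40.1 and 37.4 in the combined group, the lowest of the 8 libraries, against 49.5 and 48.9 in Smc3 del/+ (-0.34 ± 0.136, adjusted p = 0.20). Against Flt3-ITD the combined group differed by -0.43 ± 0.136 (adjusted p = 0.330). That difference was -0.48 without combined replicate 1 and -0.39 without replicate 2. In the authors' normalized table both Flt3-ITD comparisons and their average passed (-0.64, -0.68 and -0.66, adjusted p = 0.0230, 0.0484 and 0.00390), but relative to the median of all genes there they were -0.06, -0.38 and -0.22.

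Flt3, the receptor that carries the mutation, was not higher in Flt3-ITD. It was at 3.64 and 5.36 FPKM in Flt3-ITD, against 5.81 and 5.21 in controls, which overlap (log2 difference -0.26 ± 0.285, limma adjusted p = 0.573). This difference was -0.85 in the authors' normalized table (adjusted p = 0.0442), or -0.27 relative to the median of all genes there. In the combined group it was at 14.3 and 7.92, against 4.95 and 4.74 in Smc3 del/+. In the authors' normalized table combined replicate 2, at 6.17, was below both controls, at 7.81 and 7.93. In the FPKM as deposited, the combined libraries were the highest of all 8, although the replicates differed by more than the other groups spanned. The log2 difference of 1.0 ± 0.285 did not pass (adjusted p = 0.0931), nor did that of 1.11 ± 0.285 against Flt3-ITD (adjusted p = 0.239). Without combined replicate 2 these were 1.39 and 1.49, and without combined replicate 1 they were 0.61 and 0.72. The average over both Flt3-ITD comparisons was 0.37 ± 0.201 (adjusted p = 0.215). It was 0.57 without combined replicate 2 and 0.18 without replicate 1. FPKM of the gene does not tell the mutant from the normal transcript. Kit exceeded Flt3 by 2.80 and 4.72 times in the combined group, against 13.2 and 10.7 times in Flt3-ITD, 10.0 and 10.3 in Smc3 del/+ and 10.4 and 10.5 in controls. Of 4 tested stem and multipotent progenitor markers, 1 was called higher in the combined group against Smc3 del/+, where 2.55% of all genes were. The list's median log2 difference was -0.13. Cd34 was at 84.8 and 86.8 FPKM in the combined group, against 48.9 and 44.5 in Smc3 del/+ (log2 difference 0.86, limma adjusted p = 0.0315). The other 3 were not called, with log2 differences of -0.43 for Hlf, -0.27 for Meis1 and 0.00435 for Ly6a. The part of these cells in the Flt3 values was not tested.

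Added up, the 9 genes came to 553 and 424 FPKM in the combined group, 585 and 496 in Flt3-ITD, 323 and 301 in Smc3 del/+ and 303 and 301 in controls. In the FPKM as deposited, all 4 carriers were above all 4 other libraries. This order did not hold in the authors' normalized table, where the sum of combined replicate 2 was below that of both controls. The shares that follow are of the FPKM as deposited. Csf2ra alone made up 45.9% and 57.7% of the sum in the combined group, 53.3% and 45.2% in Flt3-ITD, 45.0% and 42.8% in Smc3 del/+ and 41.7% and 35.9% in controls. Kit made up 7.24% and 8.83% in the combined group, 8.23% and 11.6% in Flt3-ITD, 15.3% and 16.2% in Smc3 del/+ and 19.9% and 18.2% in controls. Csf2ra exceeded its partner Csf2rb by 3.05 to 4.43 times in 7 libraries and by 7.40 times in combined replicate 2. These sums and shares are descriptions of the libraries and were not tested.

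**Figure D4:**
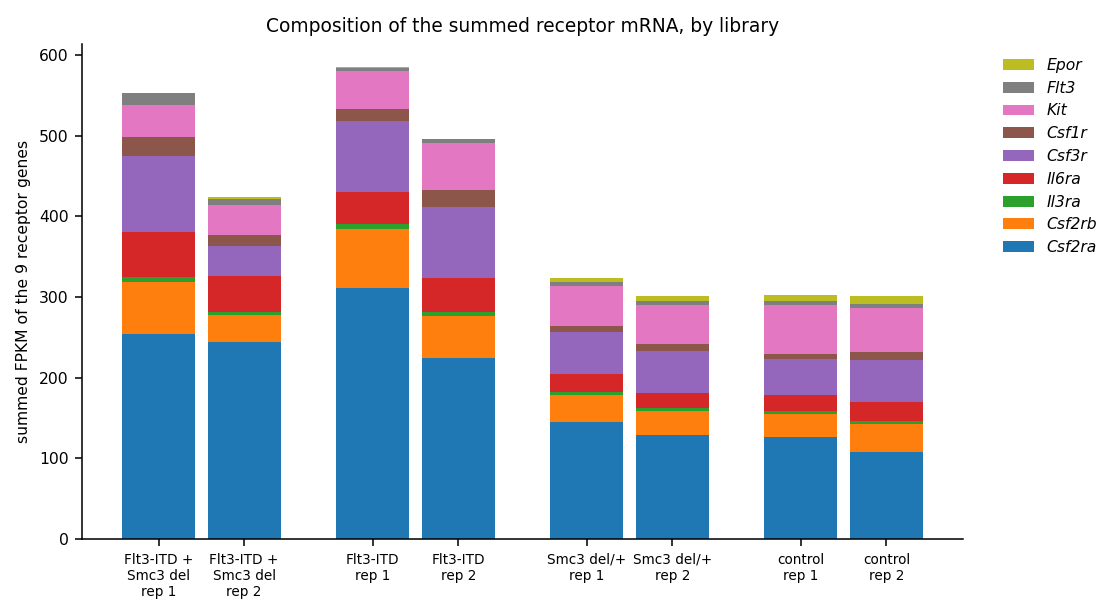
Summed FPKM of the 9 receptor genes (vertical axis, from 0) in each library of the combined (Flt3-ITD + Smc3 del), Flt3-ITD, Smc3 del/+ and control groups, with a coloured segment for each gene. Csf2ra is the largest segment in every library. In these FPKM, as deposited, the sum is 424 to 585 in the 4 Flt3-ITD carriers and 301 to 323 in the others.

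With all 8 libraries, no receptor of the set passed the test for the Smc3 label. In Smc3 del/+ against control, 0 of the 9 genes were called by limma, where 0.0% of all genes were called higher and 0.00921% lower, and 0 of the 9 had an unadjusted p under 0.05, against 4.55% of all genes. The log2 differences ran between -0.43 ± 0.343 for Epor and 0.23 ± 0.181 for Csf2ra (adjusted p = 1 for both). The 1 gene called over all tested genes was Xist (log2 difference -8.58, limma adjusted p = 1.55e-06). In the authors' normalized table the all-gene median was -0.38 and calls split into 2 higher and 10 lower in place of 0 and 1. Csf2ra was at -0.11 there, or 0.27 relative to that median. Kit, Flt3 and Epor were lower in both Smc3 del/+ libraries than in both controls, and Csf2ra and Il3ra higher, at backgrounds of 23.2% of all genes lower and 24.2% higher without overlap. In the combined group against Flt3-ITD, 0 of the 9 were called (0.24% of all genes higher, 0.0461% lower) and 2, Kit and Flt3, had an unadjusted p under 0.05, against 11.0% of all genes. Epor, Flt3 and Il6ra were higher there without overlap (17.1% of all genes) and Kit was lower (16.8%). Il6ra had a log2 difference of 0.30 ± 0.170 (adjusted p = 0.523). The differences of Csf3r, Csf2rb and Epor turned on which combined library was used, and that of Kit changed less. Without combined replicate 1, the log2 differences were -1.25 for Csf3r, -0.88 for Csf2rb, -0.48 for Kit and 1.27 for Epor. Without combined replicate 2 they were 0.08 for Csf3r, 0.07 for Csf2rb, -0.39 for Kit and 0.29 for Epor. For Flt3 the values without each combined library are given above. Each such fit leaves 1 library in the combined group, so only the size of the difference is given. Averaged over both Flt3 backgrounds, Kit had a log2 difference of -0.33 ± 0.0960 for the Smc3 label and Flt3 of 0.48 ± 0.201, with unadjusted p of 0.0101 and 0.0475 and adjusted p of 0.642 and 0.795. The Kit average was -0.35 without combined replicate 1 and -0.30 without replicate 2. With all libraries, Kit and Flt3 were the 2 of 9 genes with an unadjusted p under 0.05 there, against 6.1% of all genes. With all libraries, none of the 9 was called or free of overlap there, where 0.912% of all genes were higher and 0.783% lower without overlap.

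Whether the Flt3-ITD difference itself depended on the Smc3 label was tested as an interaction. It was called for 0 of the 9 genes, where 0.0184% of all genes were called in each direction, and 2 of the 9, Flt3 and Epor, had an unadjusted p under 0.05, against 9.3% of all genes. Over all genes it was called for 2 higher, Xist among them, and 2 lower, and in the authors' normalized table for 17 and 2, with a median of 0.27. The interaction was 1.26 ± 0.402 on the log2 scale for Flt3 (limma adjusted p = 0.416) and 1.21 ± 0.485 for Epor (adjusted p = 0.502). The Epor value was 1.70 without combined replicate 1 and 0.72 without replicate 2. For Csf3r the interaction was -0.68 ± 0.512 (adjusted p = 0.716). It was -1.34 without combined replicate 1 and -0.0147 without replicate 2. For Flt3 the interaction was 0.87 without combined replicate 1 and 1.65 without replicate 2. For Il6ra it was 0.36 ± 0.241 with all libraries (adjusted p = 0.679).

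Genes whose levels ran most like each called receptor over the 8 libraries were found by the root mean square (RMS) difference of log2(FPKM + 1), each gene centred on its mean. For Epor these were Nfia, a transcription factor gene (RMS 0.126), and 1300002E11Rik (0.183), where Epor itself varied by an RMS of 1.28 about its mean. Nfia was at 2.07 and 5.01 FPKM in the combined group, 1.64 and 1.35 in Flt3-ITD, 13.9 and 12.3 in Smc3 del/+ and 18.1 and 18.2 in controls. For Csf2ra they were Lcn2, the neutrophil granule protein lipocalin 2 (0.0772), and Mgst1, a microsomal glutathione transferase (0.0865). Csf2rb ran most like Parp4 (0.0592) and Kdm6b, a histone demethylase gene (0.0726). The nearest to Il6ra were Gria3 (0.117) and Parp3 (0.127), and to Csf1r they were Bex6 (0.151) and Cd68, a macrophage lysosomal protein (0.177). The Csf2rb neighbours share its drop in combined replicate 2, with Kdm6b at 34.1 and 18.6 FPKM in the combined group, 42.8 and 29.9 in Flt3-ITD, 19.5 and 15.7 in Smc3 del/+ and 15.2 and 18.4 in controls.

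Ligands of these receptors were scarcely detected in the same cells. Of 11 ligand genes, 2 passed the filter, Flt3l and Csf1, and neither was called in any comparison. Flt3l was at 4.63 and 5.34 FPKM in the combined group, 8.46 and 5.72 in Flt3-ITD, 4.52 and 6.17 in Smc3 del/+ and 5.10 and 7.63 in controls. Csf1, which encodes M-CSF, was between 1.80 and 3.37 FPKM in all 8 libraries. Il34, Il3 and Epo were listed at 0 in all 8 libraries, and Kitl, stem cell factor, reached at most 0.573.

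Of 24 tested genes in a list of related receptors, 8 rose and 3 fell in Flt3-ITD against control (median log2 difference 0.43, against -0.01 for all genes), and 5 rose and 1 fell in the combined group against Smc3 del/+ (0.40, against -0.02). Over all genes, 8.51% rose and 9.5% fell in the first comparison and 2.55% and 2.89% in the second. Il18r1, the interleukin-18 receptor chain, rose in both. It was at 34.8 and 24.7 FPKM in Flt3-ITD, against 6.97 and 7.70 in controls, and at 11.9 and 11.1 in the combined group, against 3.88 and 2.88 in Smc3 del/+ (log2 differences 1.86 and 1.52, limma adjusted p = 0.00253 and 0.0131). Tnfrsf1a, a TNF receptor, rose by 0.89 in Flt3-ITD against control. Met, the hepatocyte growth factor receptor, Il10ra and Tnfrsf1b rose by 1.54, 1.90 and 0.80 in the combined group against Smc3 del/+. Il1rl1, the interleukin-33 receptor of mast cells, fell by 2.81 in Flt3-ITD against control and by 1.48 in the combined group against Smc3 del/+. Il7r, the interleukin-7 receptor of lymphoid cells, was listed at 0 in both Flt3-ITD libraries, against 10.1 and 3.31 FPKM in controls. It was at 0.379 and 1.44 in the combined group, against 1.69 and 2.55 in Smc3 del/+, and was not called there. Of 8 tested B cell markers, 7 fell in Flt3-ITD against control and 4 in the combined group against Smc3 del/+. Their summed FPKM was 5.06 to 9.67 in Flt3-ITD, against 77.3 to 203 in controls. It was 7.59 to 10.3 in the combined group, against 32.9 to 46.8 in Smc3 del/+. Pax5 was listed at 0 in both Flt3-ITD libraries. Mast cell and basophil markers moved both ways beside Il1rl1 in Flt3-ITD against control, 1 higher and 3 lower of 7 tested. Their sums were 115 to 122 in Flt3-ITD, against 134 to 143 in controls. The part of these cells in either receptor's result was not tested.

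**Figure D5:**
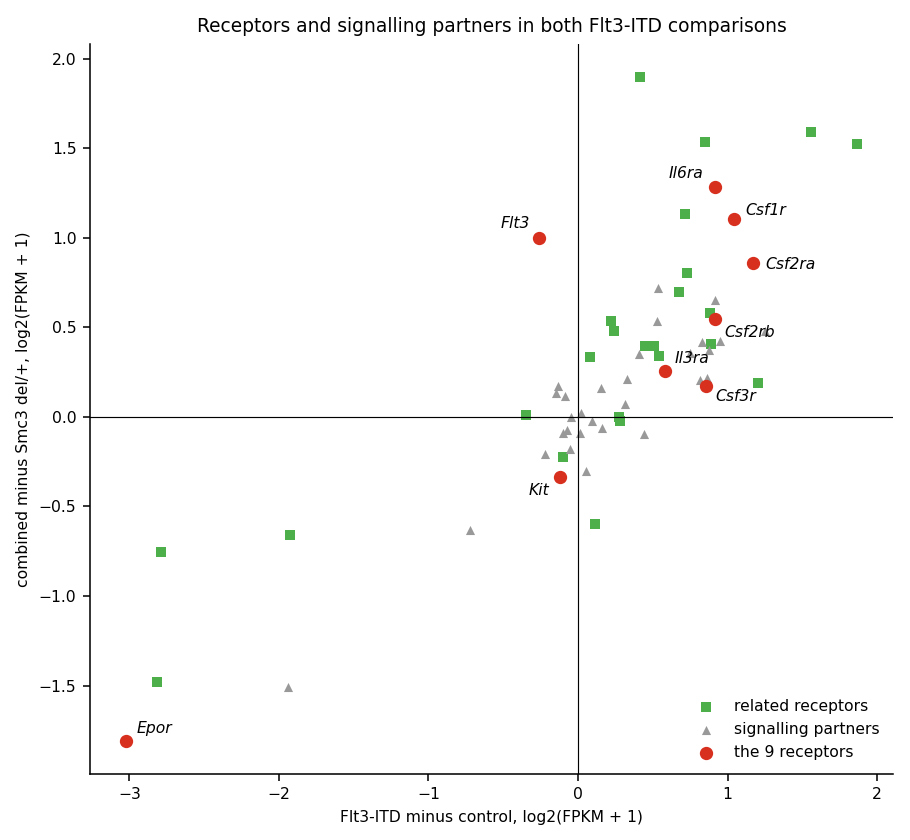
Difference in log2(FPKM + 1) of Flt3-ITD minus control (horizontal axis) and of combined minus Smc3 del/+ (vertical axis) for the 9 receptors (red, named), 24 related receptors (green squares) and 30 signalling partners (grey triangles). Epor lies at -3.02 and -1.81, Csf2ra at 1.17 and 0.86 and Il6ra at 0.92 and 1.28, and Flt3 is the one named gene to the upper left, at -0.26 and 1.0.

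Of 30 signalling partners, genes for proteins that carry the receptors' signal inside the cell, all tested, 7 rose and 2 fell in Flt3-ITD against control (median log2 difference 0.16), where 8.51% of all genes rose and 9.5% fell. Against Smc3 del/+, 2 rose and 1 fell in the combined group (median 0.12), where 2.55% of all genes rose and 2.89% fell. The 2 that fell in the first comparison and the 1 in the second are near those shares. Lyn, a Src family kinase, rose in both, by 0.92 and 0.65 (limma adjusted p = 0.00570 and 0.0374). It was at 77.8 and 63.6 FPKM in Flt3-ITD, against 36.9 and 36.8 in controls, and at 77.2 and 72.4 in the combined group, against 46.7 and 47.7 in Smc3 del/+. Ptpn6, the phosphatase SHP-1, which dampens cytokine receptors, rose by 0.95 in Flt3-ITD against control, and Pik3cg, a PI3-kinase subunit, by 0.83. Pik3cd, another such subunit, rose by 0.72 in the combined group against Smc3 del/+. Gab1, a docking protein, fell in both comparisons. It was at 1.85 and 1.28 FPKM in Flt3-ITD, against 8.61 and 8.91 in controls, and at 2.15 and 2.03 in the combined group, against 8.48 and 7.15 in Smc3 del/+ (log2 differences -1.94 and -1.51, limma adjusted p = 0.00197 and 0.0121).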

How the data were processed

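mRNA-seq libraries of Kit-enriched bone marrow cells from individual mice were made with a directional kit, per the labels' protocols. The authors deposited FPKM per gene (fragment numbers relative to transcript length and to the library's mapped total), with spike-ins, in a table of 8 libraries and in a second table that they normalized further. The submitters' processing notes name mm9, TopHat and Cufflinks 2.0.0. The annotation, the strand setting and the way the second table was made were not given in the sources used here. That second table rescaled low and high values differently, and serves as an alternative only.

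The FPKM as deposited were turned into log2(FPKM + 1), which understates changes of low genes, keeping those genes whose mean reached 1 FPKM. One limma fit (limma 3.58.1, R 4.3.3) of 4 groups with 4 residual degrees of freedom and a mean-dependent prior spread gave every comparison. P-values were adjusted over 10854 genes by Benjamini-Hochberg, two-sided, with 0.05 as the threshold. An exact permutation test of 2 libraries against 2 cannot go below 0.333. The spread is between 2 mice a group.

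The members and the lists were chosen with earlier results of these data known. From each list, up to 4 called genes with the smallest p were named in a comparison (3 in the average), and any other gene was picked after its values were seen. For the nearest patterns, the 2 genes with the smallest root mean square difference to each called member were named. Replicate numbers did not pair the libraries: same-numbered libraries deviated together with a correlation of at most 0.0229 between any 2 groups. Read depth is unknown, since FPKM holds no counts, so no counting interval can be given. Of the expression columns, 0 belonged to no sample. Alternatives were the second table, another pseudocount (0.1), no filter, no trend, median-ratio scaling, a fit of the compared groups only, a replicate block and leaving out each library. The fitting steps were tested on simulated data.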

Additional observations from a re-analysis of the deposited data

Results flagged for a closer look

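For 2 receptors the test of whether the Flt3-ITD difference depends on the Smc3 label gave an unadjusted p under 0.05, and neither passed over all genes with all 8 libraries. For Flt3 the interaction was 1.26 on the log2 scale (limma unadjusted p = 0.0149, adjusted p = 0.416). In the FPKM as deposited, Flt3 was higher in both combined libraries than in any other. In the authors' normalized table Flt3 in combined replicate 2, at 6.17, was below both controls, at 7.81 and 7.93. For Epor the interaction was 1.21 (unadjusted p = 0.0386, adjusted p = 0.502), with a smaller drop in the combined group than in Flt3-ITD. The Epor value was 1.70 without combined replicate 1 and 0.72 without replicate 2. Among all tested genes 9.3% had an unadjusted p under 0.05 for the interaction, which also separates the libraries with high Xist from those with low Xist.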

How the results depend on the processing

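Counts of called genes moved with the processing, and the cause was not tested. In the authors' normalized table they were 4874 for Flt3-ITD against control, 1303 for combined against Smc3 del/+, 5512 for the Flt3-ITD average, 12 for Smc3 del/+ against control, 7 for the Smc3 average and 19 for the interaction, in place of 1955, 591, 2828, 1, 1 and 4. With a pseudocount of 0.1 they were 3 for Smc3 del/+ against control, 5 for combined against Flt3-ITD (in place of 31) and 2 for the Smc3 average. With no filter they were 3, 385, 9 and 2 for Smc3 del/+ against control, combined against Smc3 del/+, combined against Flt3-ITD and the interaction. Without the trend they were 3 for Smc3 del/+ against control, 8 for the Smc3 average and 7 for the interaction. When the fit held the compared groups alone they were 3640 for Flt3-ITD against control, 8 for combined against Smc3 del/+, 3 for combined against Flt3-ITD and 28 for Smc3 del/+ against control. Leaving out each library gave 247 to 4242 for Flt3-ITD against control, 7 to 2724 for combined against Smc3 del/+, 1162 to 5090 for the Flt3-ITD average, 3 to 3257 for combined against Flt3-ITD, 1 to 12 for Smc3 del/+ against control, 2 to 1733 for the Smc3 average and 4 to 2052 for the interaction. A group left with 1 library is assumed there to vary like the others. With the replicate number as a block, counts were 1714, 399, 2570, 3, 1, 1 and 3 for Flt3-ITD against control, combined against Smc3 del/+, the Flt3-ITD average, combined against Flt3-ITD, Smc3 del/+ against control, the Smc3 average and the interaction. The numbers do not pair the libraries: correlations of replicate differences between groups lay between -0.113 and 0.0229.

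Some receptor differences changed sign. In the authors' normalized table these were Csf2ra in Smc3 del/+ against control (-0.11), Il3ra in Flt3-ITD against control (-0.0300), Csf3r in combined against Smc3 del/+ (-0.17), and Flt3 and Il3ra in the Flt3-ITD average (-0.0780 and -0.0054). Leaving out each library gave -0.25 to 0.00433 for Kit in Flt3-ITD against control, -0.49 to 0.84 for Csf3r and -0.16 to 0.67 for Il3ra in combined against Smc3 del/+, and -1.25 to 0.0800 for Csf3r and -0.88 to 0.0688 for Csf2rb in combined against Flt3-ITD. As reported, none of these differences had passed the threshold. The precision is limited by 2 libraries a group, and for low genes such as Il3ra, Flt3 and Epor by a read depth that is unknown.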
